A study of Mus musculus with 48 samples.

Results

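The 9 genes described here carry the output of the circadian clock, or feed it back to the clock, in mouse liver: Dbp, Tef, Hlf, Nfil3, Ciart, Bhlhe40, Bhlhe41, Noct and Usp2. They were chosen by name from what is known of the clock, by a rule that uses no measured value, though with earlier results of these data known. Of the 11275 genes listed for frozen (FROZ) liver, 8 were members, all but Usp2. Of the 6673 genes listed for formalin-fixed paraffin-embedded (FFPE) liver, 4 were members (Dbp, Nfil3, Bhlhe40 and Usp2), and Dbp, Nfil3 and Bhlhe40 were listed in both.

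Male B6C3F1 mice, a hybrid strain long used in rodent cancer bioassays, were 4 weeks old and drank water holding dichloroacetic acid (DCA), a by-product of water chlorination, for 6 days. The intake was 198 mg/kg-d at 1.0 g/L, 313 mg/kg-d at 2.0 g/L and 427 mg/kg-d at 3.5 g/L, vehicle controls drank water without DCA, and each dose had 6 animals. All 24 archived livers were measured by TempO-Seq, a targeted assay that counts ligated probe pairs and lists a gene through its probes, once from FROZ and once from FFPE material, giving 48 libraries. Frozen pieces were cut from the lobes labelled left lateral caudate and right medial, and FFPE blocks from those labelled left lateral and right medial, so preservation and lobe cannot be told apart. The hour at which tissue was collected is not given in the sources used here. An effect of dose and one of the hour of collection therefore cannot be told apart. Values are log2(CPM + 1), where CPM is the read count of a gene scaled to a library total of 1000000 (counts per 1000000).

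In liver cells the clock is a feedback loop in which Clock and Arntl bind E-boxes in promoters and switch on their own repressors, the Per, Cry and Nr1d genes, together with output genes. Dbp, Tef and Hlf are PAR bZIP transcription factors that bind D-boxes and drive genes of xenobiotic and sterol metabolism, while Nfil3 (E4BP4) binds the same sites as a repressor and is itself repressed by Nr1d1. Ciart (CHRONO), Bhlhe40 (DEC1) and Bhlhe41 (DEC2) repress transcription driven by Clock and Arntl, Noct (nocturnin) is a phosphatase with a strong daily rhythm in liver, and Usp2 is a deubiquitinase under clock control. The levels of these genes are known to move with the hour of the day.

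RefSeq promoter windows of 250 bases before a transcript start, on build GRCm38.p6, were found for 8 members (9 windows, since Tef has more than 1), and Bhlhe40 had no entry. Letters were searched on both strands. The E-box CACGTG occurred in the windows of 3 members, Ciart (3 copies), Bhlhe41 (1 copy) and Tef (1 copy in each of its 2 windows), and in 6.02% of all 32851 windows of that length. A D-box, searched as TTATGTAA or TTACGTAA, occurred in no member's window and in 0.931% of all windows, and the E-box-like CACGTT in no member's window and in 3.85%. The short site TAGGTCA or TGGGTCA, bound by nuclear receptors such as Nr1d1, occurred once among members, 12 to 6 bases before the start of Nfil3, and in 5.38% of all windows. The stretches below show the 3 members with an E-box, in capitals, and for contrast Dbp, the member with the largest fold change at 427 mg/kg-d, whose stretch held none. Each runs 5′ to 3′ on the gene's strand and was shortened where an annotated exon lies in the window. They were Ciart at chr3:95882252-95882478 (minus strand), Bhlhe41 at chr6:145865559-145865670 (minus strand), Tef at chr15:81811164-81811413 (plus strand) and Dbp at chr7:45704997-45705087 (plus strand).
Ciart: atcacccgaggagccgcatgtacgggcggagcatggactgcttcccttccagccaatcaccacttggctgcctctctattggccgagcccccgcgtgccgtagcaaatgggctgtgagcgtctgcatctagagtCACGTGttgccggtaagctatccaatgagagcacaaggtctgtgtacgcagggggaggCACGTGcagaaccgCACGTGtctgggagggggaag
Bhlhe41: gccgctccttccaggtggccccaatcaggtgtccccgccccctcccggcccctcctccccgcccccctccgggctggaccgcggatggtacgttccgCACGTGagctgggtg
Tef: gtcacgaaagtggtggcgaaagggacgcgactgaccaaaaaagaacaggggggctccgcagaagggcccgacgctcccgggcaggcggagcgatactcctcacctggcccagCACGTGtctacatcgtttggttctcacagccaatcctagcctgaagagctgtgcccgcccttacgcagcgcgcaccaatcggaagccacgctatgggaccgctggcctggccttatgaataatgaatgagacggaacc
Dbp: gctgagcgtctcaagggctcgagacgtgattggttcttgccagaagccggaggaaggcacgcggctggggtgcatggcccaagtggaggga
A match of letters is not a binding site, and no match says only that these letters are not in the stretch.

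FROZ libraries held 6690000 to 9840000 reads, estimated from the size of the smallest step between low values, and FFPE libraries 1830000 to 6010000. One read was worth 0.102 to 0.150 CPM in FROZ and 0.166 to 0.545 CPM in FFPE. Per library, 12 to 61 genes were listed at 0 in FROZ and 65 to 1580 in FFPE, and 4 FFPE libraries exceeded 1000 (3 of the 198 mg/kg-d group and 1 of the 313 mg/kg-d group). All 6 hepatocyte markers were listed in FROZ, and their summed level was 21840 to 28070 CPM in vehicle and 18880 to 23180 CPM at 427 mg/kg-d. Most of that sum was Apoa1, at 17390 to 22240 CPM in vehicle and 12840 to 18590 CPM at 427 mg/kg-d.

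The first comparison asked which output genes differed from vehicle in FROZ liver and at which dose. At 427 mg/kg-d Dbp, Bhlhe41, Ciart and Tef rose and Nfil3 fell, and at 313 mg/kg-d Dbp, Bhlhe41 and Tef rose and Nfil3 fell. At 198 mg/kg-d other members moved, since Bhlhe40 and Noct fell. By limma with Benjamini-Hochberg adjustment over the whole table (FDR under 0.05), 2, 4 and 5 of the 8 listed members passed at 198, 313 and 427 mg/kg-d, beside 1.56%, 26.7% and 30.1% of all genes. Counted as differentially expressed genes (DEGs), which also changed more than 2-fold, they were 2, 2 and 4 members, beside 0.106%, 2.31% and 3.5% of all genes. The median log2 fold change over the listed members was -0.05, 0.32 and 0.72, beside 0.07, 0.11 and 0.10 over all genes. After scaling by median ratios the all-gene median at 313 mg/kg-d moved to near 0, and the share of DEGs that were increased went from 41.7% to 30.8%, from 61.7% to 47.5% and from 64.6% to 49.9% at the 3 doses, while each member named here as rising or falling kept its direction.

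Dbp, an activator of the PAR bZIP family (chr7:45705088-45710203, plus strand, GRCm38 with GENCODE vM21), had the largest fold change of the listed members at 313 and 427 mg/kg-d. Its log2(CPM + 1) in FROZ was 3.03, 3.34 and 3.84 (lowest, median, highest of 6 animals) in vehicle, 3.19, 3.52 and 3.78 at 198 mg/kg-d, 4.33, 5.34 and 6.33 at 313 mg/kg-d, and 4.38, 6.68 and 8.49 at 427 mg/kg-d. Vehicle and 198 mg/kg-d overlapped fully, whereas every animal at 313 and 427 mg/kg-d lay above every vehicle animal. Median CPM was 9.15, 10.5, 42.0 and 109 in order of dose. The log2 fold change was 0.11 at 198 mg/kg-d (limma, FDR = 0.933), 1.95 ± 0.44 (SE) at 313 mg/kg-d (FDR = 0.00176) and 3.13 ± 0.44 at 427 mg/kg-d (FDR = 4.48e-06), which is 3.85-fold and 8.75-fold. The spread widened too, from an SD of 0.30 in vehicle to 1.50 at 427 mg/kg-d. At this top dose Dbp and Tef were the 2 members whose treated animals all lay above vehicle and Nfil3 the 1 wholly below, while 14.7% of all genes separated in one direction or the other. At 313 mg/kg-d the members without overlap were Dbp above and Nfil3 below, beside 11.5% of all genes.

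Tef, a PAR bZIP factor like Dbp (chr15:81802421-81826863, plus strand), was near the limit of detection. Its log2(CPM + 1) was 0.17, 0.45 and 0.63 (lowest, median, highest) in vehicle, 0.16, 0.84 and 1.10 at 198 mg/kg-d, 0.49, 1.17 and 1.33 at 313 mg/kg-d, and 0.64, 1.22 and 2.23 at 427 mg/kg-d. The medians stand for about 3.5, 6, 9 and 11 reads. The log2 fold change was 0.63 ± 0.22 at 313 mg/kg-d (limma, FDR = 0.033) and 0.89 ± 0.22 at 427 mg/kg-d (FDR = 0.0025), where all 6 animals lay above vehicle by a narrow margin. With an offset of 0.1 CPM in place of 1, these differences became 1.41 and 1.81 on the log2 scale, and the 313 mg/kg-d call was lost without any one of vehicle animals 4, 6 or 8 or dosed animals 73, 75 or 76 (FDR 0.0514 to 0.072).

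Hlf, the other PAR bZIP factor (chr11:90336536-90390895, minus strand), was 0.91, 1.17 and 1.50 in vehicle, 0.71, 1.24 and 1.69 at 198 mg/kg-d, 1.12, 1.42 and 1.84 at 313 mg/kg-d and 1.20, 1.55 and 2.70 at 427 mg/kg-d on the log2(CPM + 1) scale. Groups overlapped at every dose. The difference of 0.56 ± 0.22 at 427 mg/kg-d missed the threshold (limma, FDR = 0.0511), with 3 of 6 animals above the vehicle range. It passed without any one of animals 3, 49, 50, 53, 98, 99 or 101 (FDR 0.0235 to 0.047).

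Nfil3, the repressor that shares D-boxes with the PAR bZIP factors (chr13:52967209-52981073, minus strand), moved opposite to Dbp. Its log2(CPM + 1) was 5.86, 6.05 and 6.46 in vehicle, 5.67, 6.06 and 6.32 at 198 mg/kg-d, 4.74, 4.98 and 5.78 at 313 mg/kg-d, and 4.05, 4.42 and 5.59 at 427 mg/kg-d. Every animal at the 2 upper doses lay below every vehicle animal, and 198 mg/kg-d overlapped vehicle. Median CPM was 65.5, 66.1, 30.6 and 20.5. Nfil3 fell by 0.97 ± 0.20 on the log2 scale at 313 mg/kg-d (limma, FDR = 0.00083) and by 1.44 ± 0.20 at 427 mg/kg-d (FDR = 3.94e-06), so the fold was 1.95, just short of a DEG, and 2.72.

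**Figure D1:**
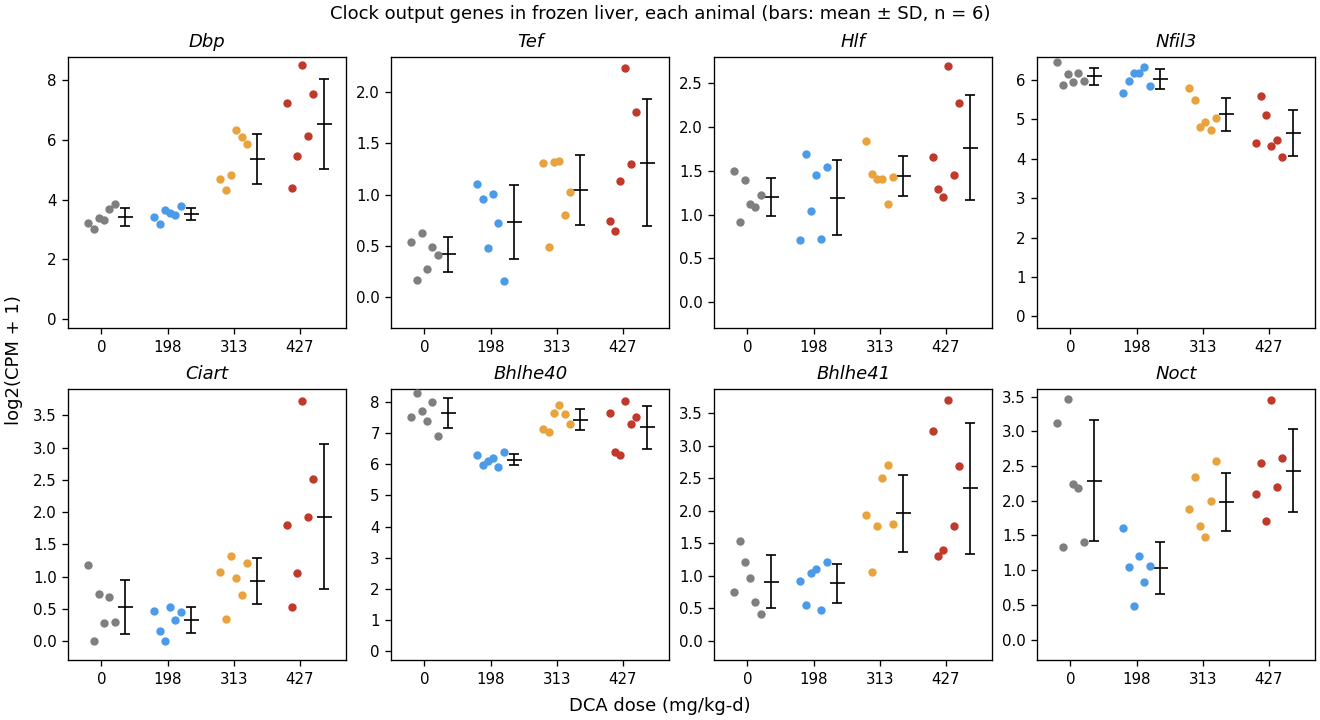
Log2(CPM + 1) of the 8 listed clock output genes in FROZ liver (y axis) by dose in mg/kg-d (x axis), 1 panel a gene and 1 point a library, with the mean and SD of 6 animals. Dbp at 313 and 427 mg/kg-d lies wholly above vehicle (lowest 4.33 against highest 3.84) and Nfil3 wholly below (highest 5.78 against lowest 5.86), while Bhlhe40 is lowest at 198 mg/kg-d.

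Among the repressors of Clock and Arntl, Ciart (chr3:95878503-95882251, minus strand) had 4 reads at the vehicle median and 21.5 at the 427 mg/kg-d median. Its log2(CPM + 1) was 0.00, 0.49 and 1.18 in vehicle, 0.00, 0.39 and 0.52 at 198 mg/kg-d, 0.35, 1.02 and 1.32 at 313 mg/kg-d and 0.53, 1.86 and 3.72 at 427 mg/kg-d. In vehicle and at 198 mg/kg-d, 1 library each was listed at 0, and 4 of 6 animals at 427 mg/kg-d lay above the vehicle range. Ciart rose by 1.40 ± 0.33 on the log2 scale at 427 mg/kg-d (limma, FDR = 0.00163, 2.64-fold), and by 2.55 with an offset of 0.1 CPM. At 313 mg/kg-d its difference of 0.41 did not pass (limma, FDR = 0.38), nor did the 1.12 that an offset of 0.1 CPM gave (FDR = 0.191).

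Bhlhe41 (chr6:145858243-145865558, minus strand) was 0.41, 0.86 and 1.53 in vehicle, 0.47, 0.98 and 1.22 at 198 mg/kg-d, 1.06, 1.86 and 2.71 at 313 mg/kg-d and 1.30, 2.23 and 3.71 at 427 mg/kg-d on the log2(CPM + 1) scale. Medians stand for 7.5, 7.5, 21 and 31 reads, and the lowest dosed animals overlapped vehicle. It rose by 1.05 ± 0.33 at 313 mg/kg-d (limma, FDR = 0.0189, 2.07-fold, 5 of 6 above the vehicle range) and by 1.44 ± 0.33 at 427 mg/kg-d (FDR = 0.00142, 2.71-fold, 4 of 6). The 313 mg/kg-d difference was 1.66 with an offset of 0.1 CPM, and 0.90 without animal 77 (limma, FDR = 0.0506).

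Bhlhe40 (chr6:108660629-108666925, plus strand), the close relative of Bhlhe41, had a different dose pattern. Its log2(CPM + 1) was 6.92, 7.62 and 8.30 in vehicle, 5.90, 6.16 and 6.38 at 198 mg/kg-d, 7.02, 7.46 and 7.90 at 313 mg/kg-d and 6.29, 7.40 and 8.02 at 427 mg/kg-d. All 6 animals at 198 mg/kg-d lay below all vehicle and all 313 mg/kg-d animals, and it was the 1 member without overlap with vehicle at that dose, beside 1.89% of all genes. Median CPM was 196, 70.8, 176 and 168. Bhlhe40 fell by 1.49 ± 0.24 on the log2 scale at 198 mg/kg-d (limma, FDR = 0.00137, 2.81-fold). At 427 mg/kg-d the difference of -0.45 ± 0.24 did not pass (FDR = 0.164), and without animal 100 it was -0.61 (FDR = 0.0476).

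Noct (chr3:51224447-51251644, plus strand) shared the low at 198 mg/kg-d. Its log2(CPM + 1) was 1.33, 2.21 and 3.46 in vehicle, 0.48, 1.05 and 1.60 at 198 mg/kg-d, 1.48, 1.94 and 2.57 at 313 mg/kg-d and 1.71, 2.37 and 3.45 at 427 mg/kg-d, with median reads of 35, 9, 25 and 35. At 198 mg/kg-d 5 of 6 animals lay below the vehicle range. Noct fell by 1.26 ± 0.31 on the log2 scale (limma, FDR = 0.0358, 2.39-fold). That call was near the threshold, since leaving out any one of 9 animals (vehicle 3, 5, 6 and 7, and 50 to 54 of the dosed group) gave an FDR of 0.0505 to 0.084. At 427 mg/kg-d the difference was 0.14 (FDR = 0.768).

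Neighbouring doses were then compared in the same limma fit. From 198 to 313 mg/kg-d 5 of 8 listed members passed an FDR of 0.05, beside 11.7% of all genes. Dbp rose by 1.84 (FDR = 0.00668), Bhlhe40 by 1.28 (FDR = 0.00063), Bhlhe41 by 1.08 (FDR = 0.033) and Noct by 0.95 (FDR = 0.045), and Nfil3 fell by 0.89 (FDR = 0.0041), all on the log2 scale. Ciart, Tef and Hlf did not pass. From 313 to 427 mg/kg-d no member passed, beside 3.07% of all genes. An unadjusted limma p under 0.05 was found for 3 of 8 listed members, beside 1975 of all 11275 genes. Their differences were 1.18 in Dbp (FDR = 0.151), 0.99 in Ciart (FDR = 0.0944) and -0.48 in Nfil3 (FDR = 0.212). A monotone trend was tested by permutation of dose labels, and 5 of 8 members had both a Kruskal-Wallis and a Jonckheere p under 0.05, beside 33.4% of all genes. The two-sided Jonckheere permutation p was 1e-05 for Dbp and for Nfil3, the smallest that 100000 permutations can give, 0.00029 for Bhlhe41, 0.00044 for Tef and 0.00071 for Ciart. Bhlhe40 differed between doses (Kruskal-Wallis permutation p = 0.0015) without a trend (Jonckheere permutation p = 0.899), and so did Noct (permutation p = 0.00181 and 0.159).

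**Figure D2:**
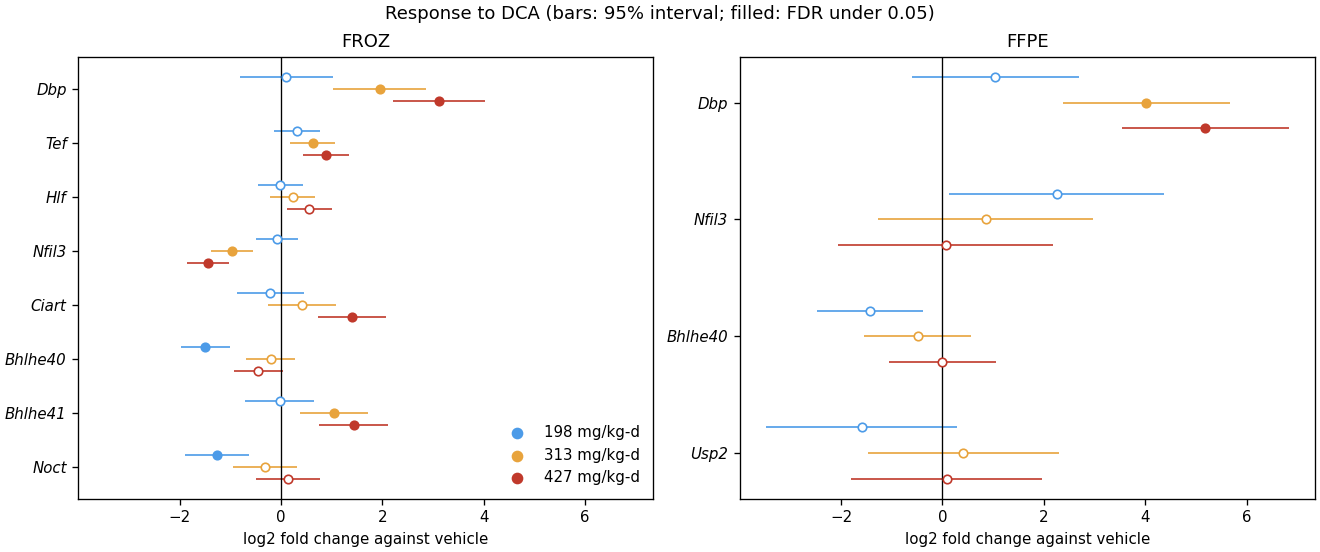
Log2 fold change against vehicle (x axis) of each listed clock output gene in FROZ and FFPE liver, with 95% confidence intervals from limma and 1 point a dose. Dbp at 427 mg/kg-d is farthest to the right in both tables, at 3.13 in FROZ and 5.19 in FFPE, and the FFPE intervals of Nfil3 and Usp2 are the widest.

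The same comparison was made in FFPE liver of the same animals. Dbp was the only member that passed, at 313 and 427 mg/kg-d. Of the 4 listed members 0, 1 and 1 passed an FDR of 0.05 at 198, 313 and 427 mg/kg-d, beside 0.0599%, 1.08% and 2.41% of all genes, and the same numbers were DEGs, beside 0.0599%, 0.809% and 1.81%. At 198 mg/kg-d 2 members, Bhlhe40 and Nfil3, had an unadjusted limma p under 0.05 (0.0094 and 0.0379), beside 785 of all 6673 genes.

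Dbp in FFPE was 0.00, 3.37 and 4.28 (lowest, median, highest log2(CPM + 1)) in vehicle, 0.00, 4.36 and 5.81 at 198 mg/kg-d, 5.68, 6.99 and 7.82 at 313 mg/kg-d and 5.27, 8.45 and 9.92 at 427 mg/kg-d. Vehicle animal 4 and dosed animal 52 were listed at 0. All animals at the 2 upper doses lay above all vehicle animals, as did 1.57% of all genes in either direction at 313 mg/kg-d and 4.48% at 427 mg/kg-d. Dbp rose by 4.02 ± 0.81 on the log2 scale (95% confidence interval 2.37 to 5.67, limma, FDR = 0.00418) and by 5.19 ± 0.81 (3.54 to 6.84, FDR = 6.8e-05). With an offset of 0.1 CPM the 313 mg/kg-d difference was 4.68 and its call was lost (FDR = 0.0628). At 198 mg/kg-d its difference was 1.04 ± 0.81 (FDR = 0.627). Without the 4 libraries with more than 1000 genes at 0, a check added after seeing the data, the values were 1.32, 4.00 and 5.19 (FDR = 0.00165 and 1.01e-05 at the upper doses).

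Bhlhe40 in FFPE was 4.54, 6.08 and 6.81 in vehicle, 3.10, 4.64 and 5.73 at 198 mg/kg-d, 4.73, 5.24 and 6.30 at 313 mg/kg-d and 5.00, 5.92 and 6.88 at 427 mg/kg-d. Its difference at 198 mg/kg-d was -1.42 ± 0.51 and did not pass (limma, FDR = 0.287). It was -0.83 (FDR = 0.678) without the 4 libraries with more than 1000 genes at 0, of which 3 belong to that dose. Nfil3 in FFPE ranged from 0.00 to 4.31 in vehicle, 1.81 to 5.41 at 198 mg/kg-d, 0.00 to 5.95 at 313 mg/kg-d and 0.00 to 3.89 at 427 mg/kg-d, with 2 libraries listed at 0 in each of vehicle, 313 and 427 mg/kg-d. The 427 mg/kg-d difference was 0.06 with an SE of 1.04 (limma, FDR = 1.00). At that dose the libraries at 0 were animals 100 and 102, with 5030000 and 5170000 FFPE reads and 18.9 and 15.6 CPM of Nfil3 in FROZ. Usp2 (chr9:44067021-44095627, plus strand), read in FFPE alone, had medians of 3.00, 0.16, 3.12 and 3.05, and 1, 3, 0 and 1 libraries were listed at 0 in order of dose. Its highest values were 5.46, 4.30, 4.54 and 4.31, the groups overlapped, and the difference at 198 mg/kg-d was -1.60 ± 0.92 (limma, FDR = 0.503).

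Between neighbouring doses in FFPE no member passed, beside 1.06% of all genes from 198 to 313 mg/kg-d and 0.375% from 313 to 427 mg/kg-d. By unadjusted limma p under 0.05 there were 2 members from 198 to 313 mg/kg-d, beside 833 of all 6673 genes, and 0 from 313 to 427 mg/kg-d, beside 649. The 2 were Dbp with a difference of 2.98 ± 0.81 on the log2 scale (FDR = 0.0653) and Usp2 with 2.00 (FDR = 0.359). The dose trend passed for Dbp only among the 4 listed members (Jonckheere permutation p = 1e-05), beside 8.74% of all genes.

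**Figure D3:**
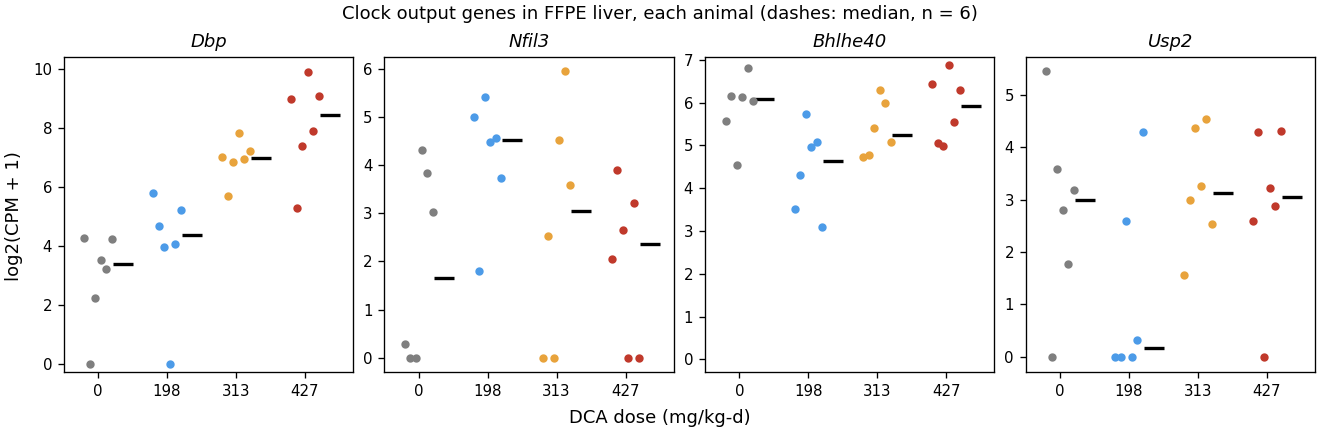
Log2(CPM + 1) of the 4 listed clock output genes in FFPE liver (y axis) by dose in mg/kg-d (x axis), 1 panel a gene and 1 point a library, with the median of 6 animals as a dash. Dbp at 313 and 427 mg/kg-d lies above every vehicle library (lowest 5.27 against highest 4.28), and libraries listed at 0 lie on the base line for Dbp, Nfil3 and Usp2.

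Whether both preservations gave different responses was tested by subtracting each animal's FROZ value from its FFPE value. No member passed an FDR of 0.05 at any dose, beside 0.0303%, 0% and 0.0303% of the 6591 genes in both tables at 198, 313 and 427 mg/kg-d. The FFPE minus FROZ response of Dbp was 2.07 (95% confidence interval 0.56 to 3.59, limma, unadjusted p = 0.00954, FDR = 0.561) at 313 mg/kg-d and 2.06 (0.54 to 3.57, unadjusted p = 0.00998, FDR = 1.00) at 427 mg/kg-d on the log2 scale. For Bhlhe40 the differences were 0.06, -0.29 and 0.45, and for Nfil3 2.33, 1.82 and 1.51, the first with an unadjusted limma p of 0.0388 (FDR = 0.419). FFPE libraries differed in depth between doses, with medians of 277.5, 980.5, 630.5 and 134 genes at 0 in order of dose, and the part of depth in these values was not tested.

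Because both tables came from the same animals, it was asked whether an animal's deviation from its dose group recurred. For Dbp, over 24 animals and with dose means taken out, Pearson's r was 0.561 (permutation p = 0.0003, adjusted over all genes 0.0425) and Spearman's rho 0.557 (permutation p = 0.0065), which did not pass after adjustment over all genes. Without the 2 animals farthest from the FROZ median (100 and 102) r was 0.467, without the 2 with the largest deviations from their dose mean (98 and 100) it was 0.363, and within dose groups it was 0.594, -0.0976, 0.783 and 0.976 in order of dose. By Pearson's r Dbp was the 1 of 3 members that passed, beside 0.728% of genes in both tables. For Bhlhe40 r was 0.437 (permutation p = 0.0369, adjusted 0.414) and rho 0.444 (permutation p = 0.0358), with r = 0.479 without the 2 farthest animals, 0.307 without the 2 with the largest deviations (98 and 99) and 0.14, -0.65, 0.942 and 0.964 within doses. For Nfil3 r was 0.05 (permutation p = 0.819, rho = 0.04, permutation p = 0.865), and -0.17 without the 2 farthest. Leaving out each animal in turn, with 10000 permutations each, the Dbp call was kept in 4 of 24 cases.

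The 6 animals at 427 mg/kg-d differed widely, and they differed in many members at once. Animal 100 was the highest of its group for 7 members, with log2(CPM + 1) in FROZ of 8.49 for Dbp (358 CPM), 3.72 for Ciart, 3.71 for Bhlhe41 and 2.70 for Hlf. Animal 98 was the lowest for Dbp (4.38), Bhlhe41 (1.30), Ciart (0.53) and Tef (0.64) and the highest for Nfil3 (5.59). The same animals held the extremes of Dbp in FFPE, at 9.92 and 5.27.

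With dose means taken out, the FROZ level of Dbp went with that of Bhlhe41 (r = 0.80 over 24 libraries), Ciart (0.75), Bhlhe40 (0.68), Tef (0.52) and Hlf (0.49), ran against Nfil3 (-0.73) and went little with Noct (0.18). These values are descriptions without a test, and the genes share their libraries. They rested largely on the 427 mg/kg-d group: there r was 0.944 with Bhlhe41, 0.944 with Ciart, 0.933 with Bhlhe40, 0.765 with Tef, 0.893 with Hlf and -0.894 with Nfil3, while over the 18 libraries of the other 3 doses it was 0.49, 0.14, 0.26, 0.06, -0.22 and -0.47 in the same order. Bhlhe40 and Bhlhe41 kept a high r in both, 0.93 at 427 mg/kg-d and 0.70 in the others. So Bhlhe40 followed Dbp between animals at 427 mg/kg-d although their responses to dose differed.

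**Figure D4:**
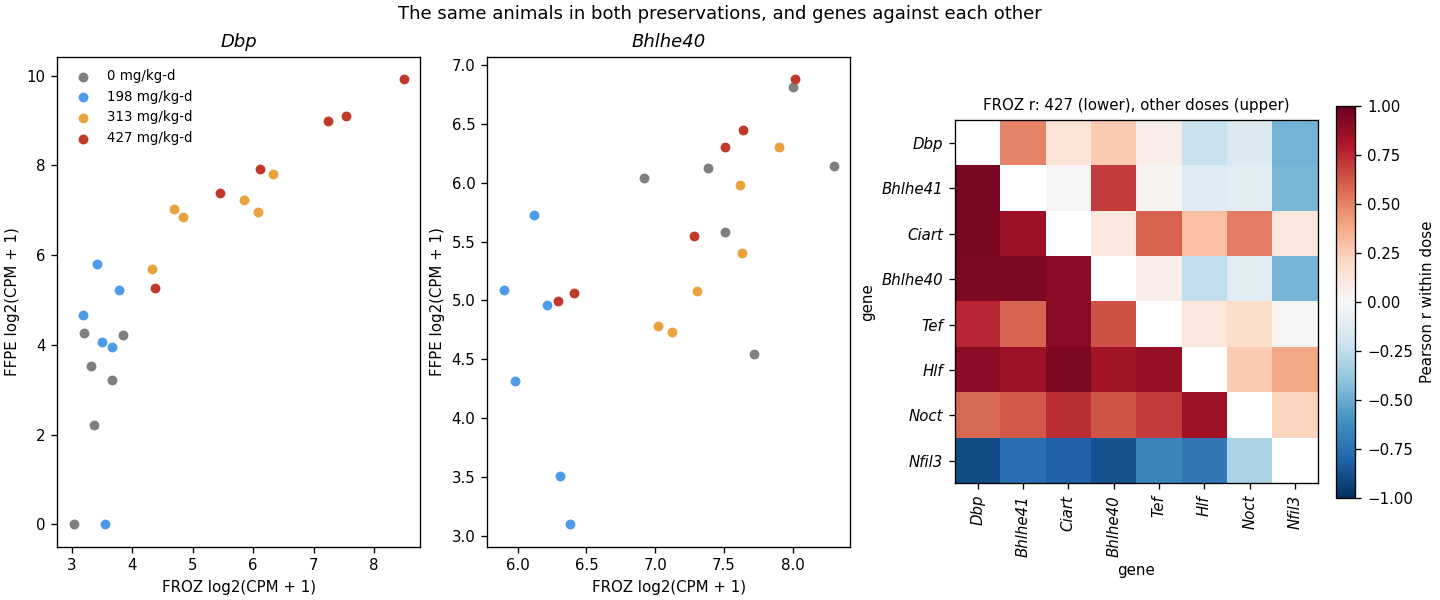
Left and middle, log2(CPM + 1) of Dbp and Bhlhe40 in FROZ (x axis) and FFPE (y axis), 1 point an animal and coloured by dose. Right, Pearson r between member genes in FROZ within dose groups, below the diagonal for 427 mg/kg-d and above it for the other 3 doses. The animal farthest up for Dbp is animal 100, at 8.49 and 9.92, and Dbp against Bhlhe41 is 0.944 below the diagonal and 0.49 above.

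For each member that was a DEG at 427 mg/kg-d, the genes averaging 10 CPM or more whose deviations were most like its own over the 24 FROZ libraries were listed. They were Bhlhe40 (r = 0.68), Jade1 (0.63) and Il15ra (0.62) for Dbp, and Btg2 (0.76), Mrps28 (0.74) and Chka (0.73) for Nfil3. For Ciart they were Dbp (0.75), Slc20a1 (0.72) and Stbd1 (0.67), and for Bhlhe41 they were Bhlhe40 (0.83), Dbp (0.80) and Rnf19b (0.69). The first gene was another member in 3 of these 4 lists, each drawn from 5874 or 5875 genes. The lists come from the same libraries and are not independent of each other. Dbp met the limit of 10 CPM mainly through 313 and 427 mg/kg-d (median CPM 42.0 and 109), being at 9.15 in vehicle and 10.5 at 198 mg/kg-d. Over the doses other than 427 mg/kg-d, r with the first gene of the list was 0.26 for Dbp and 0.14 for Ciart. It was 0.70 for Bhlhe41, and 0.79 for Nfil3 with Btg2.

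Of 12 core clock genes, which set the rhythm that output genes follow, 9 were listed in FROZ (not Npas2, Per1 or Per2). At 427 mg/kg-d 4 rose and 2 fell, beside 22.7% and 7.33% of all genes, with a list median of 0.23 beside 0.10 over all genes. The log2 fold changes were 3.21 for Nr1d1 and 2.18 for Nr1d2, which repress Arntl and Nfil3, 1.77 for Per3, 0.57 for Cry2, -1.23 for Arntl and -0.74 for Cry1. Within doses r of Dbp was 0.86 with Per3 and -0.80 with Arntl over 24 libraries, but 0.65 and -0.10 over the 18 libraries of the other 3 doses, and at 427 mg/kg-d the order of the 6 animals in Dbp was the reverse of their order in Arntl (rho = -1). At 313 mg/kg-d 3 core clock genes rose and 2 fell, beside 20.5% and 6.15% of all genes. At 198 mg/kg-d 2 rose, beside 1.12% of all genes. They were Nr1d1 by 1.24 (limma, FDR = 0.00026) and Nr1d2 by 0.89 (limma, FDR = 0.0086). In FFPE 6 core clock genes were listed and 1, Nr1d1, rose at 427 mg/kg-d by 3.43 (limma, FDR = 0.0179), beside 1.54% of all genes that rose.

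Genes known as targets of the PAR bZIP factors in liver stand downstream of Dbp, Tef, Hlf and Nfil3. All 9 were listed in FROZ, and none passed at 198 mg/kg-d, 4 rose at 313 mg/kg-d and 6 rose at 427 mg/kg-d, with none falling and a median of 0.68 at the top dose beside 0.10 over all genes. Of all genes 20.5% rose at 313 mg/kg-d and 22.7% at 427 mg/kg-d. Cyp2a5, a coumarin hydroxylase, rose by 2.17 and Cyp2a4, a steroid hydroxylase, by 3.84, though near-identical sequence makes the split of reads between these neighbours uncertain. Cyp7a1, the rate-limiting enzyme of bile acid synthesis, rose by 1.02 (limma, FDR = 0.0199). Por, the electron donor of microsomal P450 enzymes, rose by 0.68 (FDR = 0.00418), Nr1i3 (CAR), a xenobiotic receptor, by 0.59 (FDR = 0.00246) and Ppara, a receptor for fatty acids, by 0.39 (limma, FDR = 0.0434). Alas1, Cyp2b10 and Lpl did not pass. Within doses r of Dbp over 24 FROZ libraries was -0.28 with Cyp2a4, 0.04 with Cyp2a5 and 0.39 with Cyp7a1. It was 0.18 with Por, -0.20 with Nr1i3 and 0.43 with Ppara. At 427 mg/kg-d alone these were -0.12, 0.64, 0.45, 0.87, -0.14 and 0.83 in the same order. Over the doses other than 427 mg/kg-d they were -0.51, -0.65, 0.38, -0.35, -0.33 and 0.30. In FFPE 8 of these targets were listed. At 427 mg/kg-d 3 of them rose in FFPE, beside 1.54% of all genes. They were Cyp2a4 by 3.86, Cyp2a5 by 2.18 and Nr1i3 by 1.41 on the log2 scale.

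These are bulk samples, in which fewer cells of a type and less RNA per cell cannot be told apart. At 427 mg/kg-d in FROZ some markers of other cells fell beside the members: 2 of 4 Kupffer cell markers listed, 2 of 3 red cell markers, 1 of 4 stellate and 1 of 5 endothelial markers, and 1 of 6 hepatocyte markers, while 0 of 3 cholangiocyte and 0 of 3 lymphocyte markers passed by limma (0 by unadjusted p under 0.05). Of all genes 7.33% fell. Their summed level in vehicle and at 427 mg/kg-d was 36.5 to 48.5 and 29.9 to 39.7 CPM for Kupffer cells, 92.6 to 113.5 and 73.4 to 87.4 CPM for endothelial cells, and 40.4 to 77.3 and 22.2 to 48.8 CPM for red cells. The single marker listed at 0 in FROZ was the endothelial Lyve1, in a vehicle library. In FFPE the summed level of the 5 hepatocyte markers listed was 37990 to 52770 CPM in vehicle and 26380 to 31410 CPM at 427 mg/kg-d, without overlap. Most of that sum was Apoa1, at 26980 to 37080 CPM in vehicle and 15950 to 21380 CPM at 427 mg/kg-d. Ttr went the other way, with medians of 1169 and 1704 CPM, the 1 of 5 with a positive difference. Of the 5 markers Apoa1 fell, by 0.79 on the log2 scale (limma, FDR = 0.00779), beside 0.869% of all genes that fell, and Alb lay wholly below vehicle at -0.61 (FDR = 0.257). None of the 2 Kupffer cell, 4 stellate, 3 endothelial, 2 cholangiocyte and 3 red cell markers listed in FFPE passed by limma at 427 mg/kg-d. Among these, 1 (Alas2) had an unadjusted limma p under 0.05, beside 581 of all 6673 genes. The part of these cells in the members' changes was not tested.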

How the data were processed

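RNA of 24 mouse livers was measured by TempO-Seq in paired FROZ and FFPE libraries. According to the study's methods and the submitters' processing notes, the authors aligned trimmed reads to mm10 with STAR 2.6 in Partek Flow, counted them per RefSeq gene by expectation maximization, dropped genes of low geometric mean, scaled each library to CPM, added 1 and took the log. The deposited log2 values, log2(CPM + 1), were used as given, each table alone; probes of abundant genes had been attenuated in the assay. Depth was estimated from the steps between low values, of which 96.0 to 96.7% in FROZ and 82.7 to 94.5% in FFPE were whole reads within 0.02 reads, too few in FFPE for a count test.

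Doses were compared by limma 3.58.1 (R 4.3.3; trended prior, all 24 libraries of a table, Benjamini-Hochberg over the table), with DEGs at an FDR under 0.05 and a fold above 2. The fits were tested on simulated data. Trends and recurrence used 100000 permutations (Python 3.11.15, numpy 2.4.6, scipy 1.17.1, pandas 2.3.3). The FFPE minus FROZ response was fitted on each animal's own difference, the pairing coming from the labels' animal numbers: the median correlation of deviations was 0.128 for the same animal and -0.0232 for others of its dose, and 21 of 24 animals matched themselves best over 4815 genes. Named genes were all 9 members, the 3 genes most like each member that was a DEG at 427 mg/kg-d in FROZ, and up to 6 genes of each fixed list with an FDR under 0.05 there. The members and lists were chosen with earlier results of these data known. Alternatives were a 0.1 CPM offset, median ratio scaling, a filter at a mean of 1 CPM, array weights, a prior without trend, fits of 2 groups only and leaving out each animal. Each animal is a separate mouse, 1 library per preservation.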

Additional observations from a re-analysis of the deposited data

Results flagged for a closer look

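Among 48 dose groups of member values examined for a single library standing apart, 1 had such a library, where chance gives about 1 in 20. It was Dbp in FFPE at 198 mg/kg-d, where animal 52 was listed at 0 and the nearest of the other 5 libraries was at 3.95, a gap of 0.68 of the range. This library held 2820000 reads and 1151 genes at 0, and in FROZ the same animal was at 3.55, within its group. The part of depth in the value was not tested.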

How the results depend on the processing

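Dbp, Nfil3, Ciart, Bhlhe41 and Tef at 427 mg/kg-d in FROZ passed an FDR of 0.05 by limma in every alternative run, which for Tef excludes the filter at a mean of 1 CPM, since Tef lies under it. The count of members passing at 198 mg/kg-d in FROZ, 2 by FDR and as DEGs, was 1 with a prior without trend (Noct FDR = 0.0508) and 1 with 2 groups only (Noct FDR = 0.0738), and 1 to 2 over fits without 1 animal, 1 where Noct was lost. The DEG count at 313 mg/kg-d was 1 to 3 without 1 animal, and 1 where Bhlhe41 fell short without animal 7, 8, 76 or 77. In FFPE at 313 mg/kg-d the counts of 1 became 0 with an offset of 0.1 CPM (Dbp 4.68, FDR = 0.0628). The count of members recurring between tables was 0 with Spearman's rho, and 0 to 1 without 1 animal (10000 permutations each), kept without 3, 50, 52 or 73. Tef at 313 mg/kg-d missed under median ratio scaling (0.57, FDR = 0.0558), and Hlf at 427 mg/kg-d passed with the filter at 1 CPM (FDR = 0.0498) and with array weights (FDR = 0.021). Scaling by median ratios took the increased share of FFPE DEGs at 427 mg/kg-d from 67.8% to 56.1%. The cause of these changes was not tested, and the 2-group fits also used fewer samples.

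Differences that changed sign had not passed: Hlf in FROZ at 198 mg/kg-d was 0.11 with array weights, and in FFPE at 427 mg/kg-d Bhlhe40 was 9.0e-05 with the 0.1 CPM offset, Nfil3 was -0.0039 with median ratios and -0.23 with weights, and Usp2 was -0.0026 and -0.050. Without 1 animal the ranges crossing 0 were -0.13 to 0.10 for Bhlhe41, -0.11 to 0.085 for Hlf and -0.13 to 0.00028 for Nfil3 in FROZ at 198 mg/kg-d, and -0.059 to 0.38 for Noct at 427 mg/kg-d. In FFPE they were -0.15 to 0.94 for Usp2 at 313 mg/kg-d, and at 427 mg/kg-d -0.27 to 0.19 for Bhlhe40, -0.32 to 0.54 for Nfil3 and -0.48 to 0.66 for Usp2. The Bhlhe40 FFPE minus FROZ response at 198 mg/kg-d ranged from -0.22 to 0.38, and the recurrence r of Nfil3 from -0.12 to 0.23.

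Without the animal as a block the FFPE minus FROZ estimates were the same and 0 members passed, with unadjusted limma p of 0.0451 and 0.0466 for Dbp at 313 and 427 mg/kg-d. Nfil3 and Usp2 in FFPE were listed at 0 in 6 and 5 libraries, deep ones among them, and the cause was not tested. Tef, Ciart, Hlf and Bhlhe41 rest on few reads in FROZ, and so does Noct at 198 mg/kg-d (median of 9 reads).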
